A study of Mus musculus with 2 samples.

Results

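The D-type cyclins, the kinases they switch on, their inhibitors and 2 markers of dividing cells were followed through single-cell RNA sequencing (scRNAseq) of sorted cells from the adult mouse dentate gyrus (DG). The 10 genes were taken by symbol from the 32285 genes of the deposited tables: the cyclins Ccnd1, Ccnd2 and Ccnd3, the kinases Cdk4 and Cdk6, the kinase inhibitors Cdkn1a and Cdkn1b, the retinoblastoma gene Rb1, and the cycle markers Mki67 and Top2a. All 10 were present in the tables of all 12 clusters. They were selected on their levels, shares of cells and co-detection per cluster and genotype, so these values are given as descriptions and none is tested.

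Cells came from 2 groups of mice that both carried NestinCreERT2, a tamoxifen-activated Cre recombinase driven by the Nestin promoter, and ROSA-STOP-EYFP, which turns on a yellow fluorescent protein in cells where Cre has acted. The wild-type (WT) group was NestinCreERT2;VEGFWT/WT;ROSA-STOP-EYFP and the knockdown group, labelled KO and called iKD here, was NestinCreERT2;VEGFfloxed;ROSA-STOP-EYFP in which Cre also acts on the floxed Vegfa alleles. Both received tamoxifen (TAM), and EYFP+ cells were sorted 21 d later from the DG of 5 mice per group, which were littermates of 7 to 10 wk at the start and of both sexes. Each group gave 1 10x library from its pooled mice, so no difference between genotypes has a replicate check, and every interval below is a 95% interval of counting error alone.

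D-type cyclins are made in response to growth signals and pair with CDK4 or CDK6 early in the cell cycle. The paired kinases phosphorylate the protein of Rb1, which then releases E2F transcription factors that start DNA replication. The products of Cdkn1a (p21) and Cdkn1b (p27) restrain these and later kinases, p21 as a target of p53 and of other stress signals. In the adult DG, dividing intermediate progenitor cells (IPCs) are known for high Mki67 and Top2a and for use of Ccnd2, whereas quiescent neural stem cells (NSCs) and resting microglia lack both cycle markers.

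Mki67 encodes the proliferation antigen Ki-67 and Top2a the DNA topoisomerase that untangles chromosomes before division. They were the pair of genes here whose transcripts fell in the same cells most often relative to other cells, so their RefSeq promoter windows (GRCm38.p6, 250 bases before to 50 after the transcription start) are shown, with matches to 3 kinds of motif in capitals. The motifs were TTTGAA, the cell-cycle homology region (CHR) of genes active in G2 and mitosis, CCAAT, and E2F-type strings, for which TTGGCGC was searched along with the related strings TTGCCGC, then TTCGCGC, and also TTCCCGC. Both strands were searched, and the reverse of CCAAT and the first E2F-type string can share letters. The Mki67 window is chr7:135716330-135716629 and the Top2a window chr11:99024140-99024439, both on the minus strand and written 5′ to 3′ along the gene.
Mki67: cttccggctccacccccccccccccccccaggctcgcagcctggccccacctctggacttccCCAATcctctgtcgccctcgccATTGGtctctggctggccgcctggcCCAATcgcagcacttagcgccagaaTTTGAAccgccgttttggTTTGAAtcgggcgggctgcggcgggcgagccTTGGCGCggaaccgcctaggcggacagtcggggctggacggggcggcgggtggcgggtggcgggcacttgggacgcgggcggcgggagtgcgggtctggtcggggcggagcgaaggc
Top2a: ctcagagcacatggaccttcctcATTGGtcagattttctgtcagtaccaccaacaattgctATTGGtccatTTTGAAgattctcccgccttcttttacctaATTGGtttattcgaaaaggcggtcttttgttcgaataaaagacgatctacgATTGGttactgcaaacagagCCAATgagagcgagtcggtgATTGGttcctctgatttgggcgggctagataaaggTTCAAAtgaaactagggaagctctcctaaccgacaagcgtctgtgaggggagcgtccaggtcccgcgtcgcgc
The Mki67 window held 2 CHR, 3 CCAAT and 1 E2F-type match, and the Top2a window 2 CHR and 6 CCAAT matches. Of 32851 promoter windows of this length, 17.9% held a CHR match, 37.4% a CCAAT match, 9.57% an E2F-type match and 6.95% both CHR and CCAAT. Windows were given for 7 of the 10 genes, 9 windows in all, and the 7 windows of Ccnd3, Cdk4, Cdk6, Cdkn1a and Cdkn1b held no CHR match. CCAAT was found 3 times in the Cdkn1b window and once in 1 of the Ccnd3 windows. Ccnd1, Ccnd2 and Rb1 had no entry.

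The tables held 5543 WT and 5261 iKD cells, with a median of 8051 and 7080 unique molecular identifiers (UMIs, 1 for each captured transcript) per cell, and 9 cell barcodes occurred in both libraries. Cells were named by the depositors as quiescent NSCs (qNSC1, qNSC2), active NSCs (aNSC), neural stem and progenitor cells (NSPCs), IPC1, IPC2, early neuroblasts (eNB), neuroblasts (NB), immature neurons (IN1, IN2), astrocytes and undefined. The names are kept here as labels, because the 10 microglia markers looked for (Cx3cr1, P2ry12, C1qa and others) were found in a median of 99.98% of the 10292 cells of the 8 clusters from qNSC1 to NB, at a summed level of 351.6 to 443.9 counts per 10,000 UMIs by cluster. In the same cells the 9 NSC markers were found in a median of 0.360% and the 6 IPC markers in 0.00972%, with Neurod4 and Mfap4 at 0, and the astrocyte-named cluster carried all 8 choroid plexus markers in more than 50% of its 134 cells. In the 6 clusters from qNSC1 to IPC2, 74 UMIs (58.1 to 92.9) of the targeted gene Vegfa were counted in WT, which had 3752 cells there. In iKD, which had 3412, the count was 36 (25.2 to 49.8). These counts are not scaled to depth, and all genes together gave 30163456 UMIs in these WT cells and 24320524 in these iKD cells. The study describes Vegfa as close to the detection floor and unsuited to comparing the genotypes. Whether these 3′ reads cover the floxed part was not tested.

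Among the D-type cyclins, Ccnd3 was detected in most cells, Ccnd1 in about as many cells as not, and Ccnd2 in very few. A Ccnd3 UMI was found in 94.8% (94.3 to 95.2) of the 10292 cells of the 8 clusters, a Ccnd1 UMI in 52.7% (51.7 to 53.6) and a Ccnd2 UMI in 0.486% (0.361 to 0.640). In the astrocyte-named cluster, whose median depth of 7722 UMIs was close to the 7622.5 of the 8 clusters, Ccnd2 was instead found in 65.7% (57.0 to 73.7) of cells and Ccnd1 in 13.4% (8.16 to 20.4). The astrocyte-named cluster was made of 130 iKD and 4 WT cells. Among iKD cells alone, Ccnd2 was found in 65.4% (56.5 to 73.5) of it and in 0.679% (0.471 to 0.947) of the 8 clusters, and Ccnd1 in 13.8% (8.42 to 21.0) and 54.0% (52.6 to 55.4). In this library the cells with choroid plexus markers and those with microglia markers differed in the D-type cyclins they held, and the plot of cyclin detection in 3 sets of cells shows both genotypes together. All 3 intervals of one set lay apart from those of the other, Ccnd3 included, which was found in 78.4% (70.4 to 85.0) of the astrocyte-named cells.

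**Figure D1:**
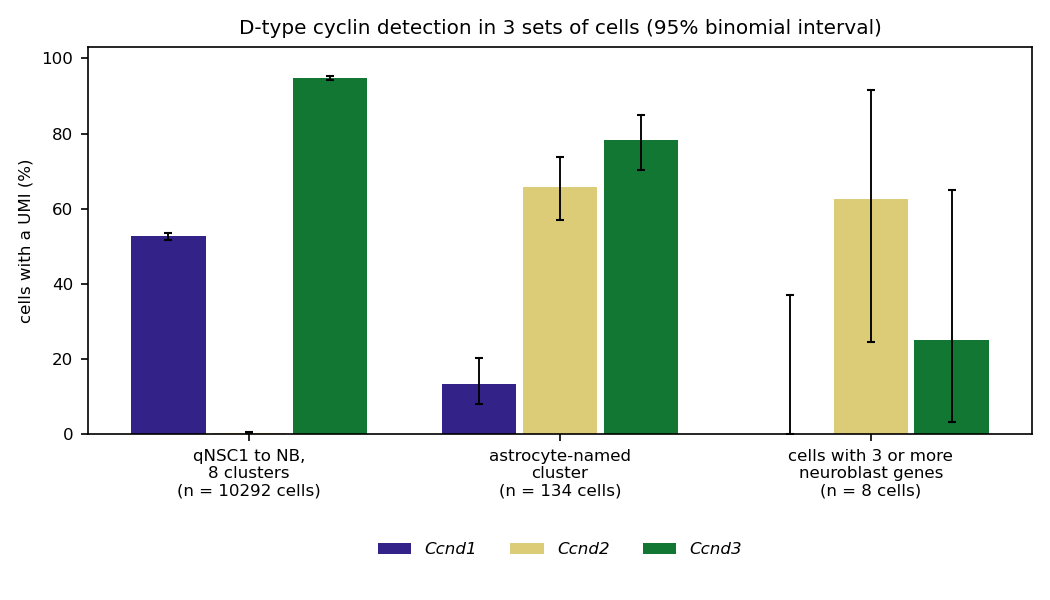
Share of cells with at least 1 UMI of Ccnd1, Ccnd2 or Ccnd3 (bars, %) in the 8 clusters from qNSC1 to NB, in the astrocyte-named cluster and in the 8 cells with 3 or more neuroblast genes, with 95% exact binomial intervals. Ccnd2 stood at 0.486% in the first set, 65.7% in the second and 62.5% in the third, where Ccnd1 was at 0%. In the third set 2 of the 8 cells, without Ccnd2, also carried 201 and 510 UMIs of the microglia markers.

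Ccnd3 (GRCm38 chromosome 17, 47505051 to 47599691, plus strand) ranged over the 8 clusters from 4.64 counts per 10,000 UMIs (4.37 to 4.92) in qNSC1 to 9.09 (8.94 to 9.24) in IPC2, over both genotypes and sexes. In WT cells alone IPC2 was also highest, at 10.5, whereas in iKD cells alone it was at 6.99 and eNB was highest, at 7.38, with qNSC1 lowest in both genotypes. Neighbours in the order over both genotypes could be told apart by their counting intervals at 3 of 7 steps, from IPC2 to aNSC, from NB to IPC1 and from IPC1 to NSPCs. In the small IN2 cluster of 288 shallower cells, with a median of 3102.5 UMIs, it reached 17.6 (16.8 to 18.4). In the undefined cluster only 3 Ccnd3 UMIs were counted in 40 cells.

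Ccnd1 (chromosome 7, 144929931 to 144939925, minus strand) had a narrower range, from 0.995 counts per 10,000 UMIs (0.898 to 1.10) in qNSC2 to 1.75 (1.59 to 1.93) in aNSC. The aNSC and qNSC2 clusters stood apart from their neighbours in the order, and the 6 clusters between them did not separate from each other step by step. In contrast to Ccnd3, the Ccnd1 level was lower in IN2, at 0.505 (0.379 to 0.659). After each cell was thinned to 4500 UMIs, Ccnd1 was detected in 45.6% of aNSC cells and 32.5% of qNSC2 cells, the highest and lowest shares of the 8 clusters.

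Ccnd2 (chromosome 6, 127125162 to 127152193, minus strand) came to 59 UMIs in 50 cells over the 8 clusters. Its level there lay between 0.00520 and 0.0444 counts per 10,000 UMIs, and none of the 7 steps between neighbouring clusters could be told apart. The astrocyte-named cluster had a level of 2.91 (2.58 to 3.26) from 282 UMIs. Choroid plexus markers were also unequal between the libraries, with a summed level of 0.153 in WT and 10.6 in iKD cells of the 6 clusters, while Ccnd2 had 22 UMIs in WT and 37 in iKD cells of the 8 clusters. The part of free choroid plexus RNA in the Ccnd2 counts was not tested.

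A further source of Ccnd2 lay in IN2, where 95 UMIs were counted in 8 of 94 iKD cells and 5 UMIs in 3 of 194 WT cells. Of the 95, 91 were in 7 cells with UMIs of at least 3 of the 6 neuroblast genes (Dcx, Sox11, Igfbpl1, Calb2, Neurod1, Tubb3), a threshold chosen after these values were seen. No WT cell of IN2 passed it, and 1 WT cell of eNB did, giving 8 such cells in all. The eNB cell and 1 of the IN2 cells also carried 510 and 201 UMIs of the microglia markers. These 2 cells held every Ccnd3 UMI of the 8 and no Ccnd2. The 5 of the 8 cells with Ccnd2 carried 2, 3, 9, 7 and 70 UMIs of it, so 1 cell held most of the count. The 5 cells with Ccnd2 had no UMI of Ccnd1, Ccnd3, P2ry12, Cx3cr1 or C1qa, from 12 to 32 UMIs of Tubb3, a neuronal tubulin, and from 1 to 6 of Cdk4. Neither Mki67 nor Top2a was detected in the 8 cells, which allows a share of cells with a UMI of up to 37.5% and sets no limit on cells that express them. Without the 7 cells the Ccnd2 level of IN2 fell from 0.392 to 0.0746, and that of Ccnd3 was 18.0.

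The number of D-type cyclins found per cell depended on depth. With all UMIs of the 10292 cells of the 8 clusters, 47.6% held 1 cyclin, 49.9% held 2 and 2.36% none. In the 9953 cells thinned to 4500 UMIs, 5.58% held none, 59.2% held 1, 35.1% held 2 and 0.0904% held all 3. The share with 2 was 42.3% in aNSC and 27.0% in qNSC1. Ccnd1 and Ccnd3 were found together in 35.0% of cells, and Ccnd3 was detected in 88.8% of cells with Ccnd1 and in 90.8% of cells without it. Detection of one of the pair thus hardly moved with detection of the other. In the astrocyte-named cluster 44.4% of thinned cells held 2 cyclins and 1.85% held 3.

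**Figure D2:**
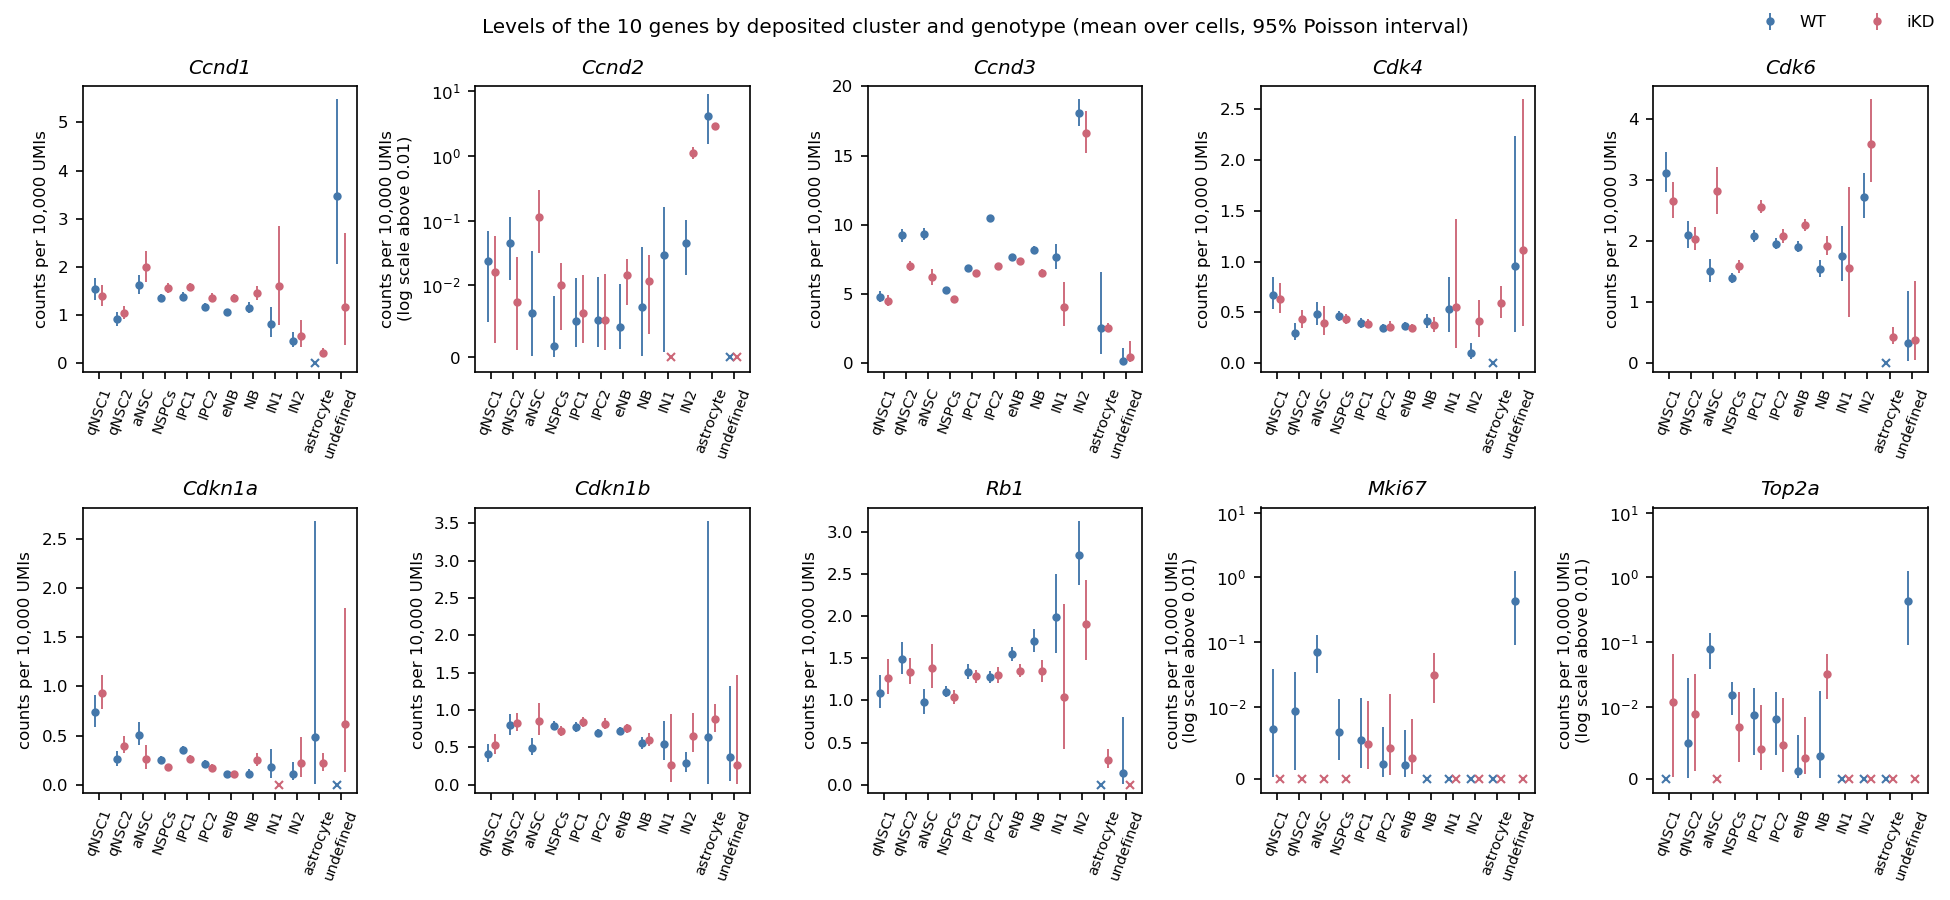
Level of each of the 10 genes (counts per 10,000 UMIs, mean over cells) in the 12 deposited clusters for WT and iKD cells, with 95% Poisson intervals of the summed UMIs. Crosses mark groups with no UMI, and the axes of Ccnd2, Mki67 and Top2a are logarithmic above 0.01. Ccnd2 was highest in the astrocyte-named cluster, at 2.91 over both genotypes, and Ccnd3 in IN2, at 17.6.

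Of the kinases, Cdk6 (chromosome 5, 3341485 to 3531008, plus strand) was detected in 67.8% and Cdk4 (chromosome 10, 127063534 to 127067920, plus strand) in 25.5% of the cells of the 8 clusters. Over both genotypes, both were highest in qNSC1, the cluster with the lowest Ccnd3, while in iKD cells alone Cdk6 was highest in aNSC, at 2.81 against 2.65 in qNSC1. The Cdk6 level was 2.86 (2.65 to 3.08) in qNSC1 and 1.47 (1.41 to 1.54) in NSPCs, and the Cdk4 level was 0.650 (0.550 to 0.763) in qNSC1 and 0.350 (0.321 to 0.381) in IPC2. For Cdk4 the step from qNSC1 to aNSC was the only one of 7 whose intervals lay apart. Across thinned cells Cdk6 was found in 52.9% of cells with Cdk4 and 53.0% of cells without it. Cdk6 was found in 55.8% of cells with Ccnd1 and 51.1% of cells without, and in 52.8% of cells with Ccnd3 and 54.5% of cells without. In the astrocyte-named cluster Cdk6 was at 0.422 (0.300 to 0.577) and Cdk4 at 0.572 (0.437 to 0.736).

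The inhibitors ran in different directions over the clusters. Cdkn1a (chromosome 17, 29090976 to 29100727, plus strand) fell from 0.842 counts per 10,000 UMIs (0.730 to 0.967) in qNSC1 to 0.111 (0.0960 to 0.127) in eNB, a ratio of 7.60. Cdkn1b (chromosome 6, 134920401 to 134925513, plus strand) was instead lowest in qNSC1, at 0.479 (0.396 to 0.574), and highest in qNSC2, at 0.816 (0.728 to 0.910), with no step between neighbours told apart. Cdkn1a was carried by few cells, 18.5% in qNSC1 and 5.99% in eNB, against 30.5% to 42.0% for Cdkn1b. In thinned cells Cdkn1a was found in 5.94% of cells with Ccnd3 and 9.15% of cells without it, and Cdkn1b in 26.7% and 22.3%.

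Rb1 (chromosome 14, 73183673 to 73325822, minus strand) varied least, from 1.08 (1.03 to 1.13) in NSPCs to 1.52 (1.43 to 1.62) in NB, and in iKD cells alone it was highest in aNSC, at 1.39. Its intervals overlapped at each of the 7 steps between neighbouring clusters. It reached 2.46 (2.18 to 2.77) in IN2 and was at 0.290 (0.194 to 0.417) in the astrocyte-named cluster. Of the 10 genes, 4 had a highest level at least 2 times the lowest over the 8 clusters (Ccnd2, Cdkn1a, Mki67 and Top2a). Over all 14918 genes with at least 20 UMIs the share was 43.3%, close to that of the 10 genes, and 3 of the 4 rest on fewer than 100 UMIs.

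Cells with transcripts of both cycle markers were rare. Mki67 was found in 22 of 10804 cells, Top2a in 44 and both in 6, or 0.0555% (0.0204 to 0.121). Of the 6, 4 were among the 5543 cells of WT, a share of 0.0722% (0.0197 to 0.185). The 2 of iKD, among 5261, made a share of 0.0380% (0.00460 to 0.137), so a difference between genotypes was not detectable at this depth. In the astrocyte-named cluster neither gene was detected in 134 cells, which allows a share of cells with a UMI of up to 2.24%. Among thinned cells of the 8 clusters Top2a was found in 21.4% of the cells with Mki67 and 0.221% of those without, although the first share stands for 3 cells.

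The 6 cells did not gather in 1 cluster. In aNSC, a WT cell held 10 UMIs of Mki67 and 11 of Top2a, and this 1 cell gave every UMI of both genes in that cluster. In NSPCs, a WT cell held 5 and 9. In NB, an iKD cell held 6 and 5, and these 3 cells also carried UMIs of 17 to 21 of 28 other G2 and mitosis (G2/M) genes, with Hmgb2 in all 3 and Cdk1 in the aNSC and NSPCs cells. In the undefined cluster, a WT cell held 3 UMIs of each marker and 8 of the G2/M genes. In IPC1, a WT cell held 1 UMI of each marker and an iKD cell 4 and 1, with 3 and 2 of the G2/M genes. Of 25 S-phase genes, the WT cell of IPC1 carried 18 and the iKD cell 0. The aNSC cell carried 16 of them, the undefined cell 13, the NSPCs cell 6 and the NB cell 2. All 6 cells carried 9 or 10 of the 10 microglia markers and no neuroblast or NSC marker, and none had a Ccnd2 UMI. The aNSC cell also held 11 UMIs of Cdkn1a.

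**Figure D3:**
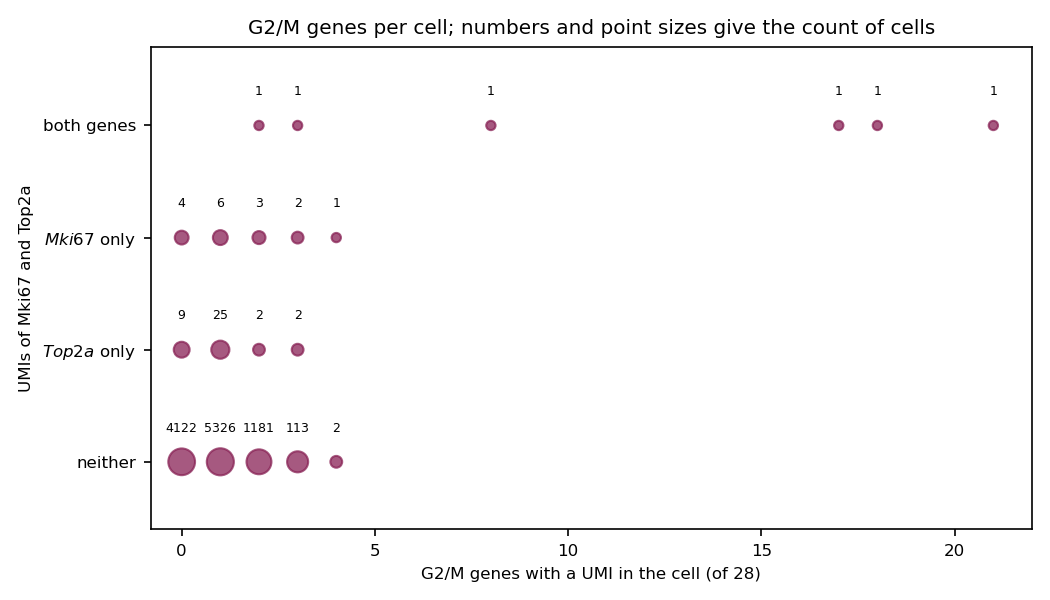
Number of G2/M genes with a UMI per cell (horizontal axis, of 28 genes, Mki67 and Top2a not among them) for cells with UMIs of neither marker, of Top2a alone, of Mki67 alone and of both. Numbers above the points count cells. Of the 6 cells with both, 4 lie at 8 genes or more, and no cell of the other sets lies above 4.

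Cells with a UMI of 1 marker alone held on average slightly more other G2/M genes than cells with neither, and far fewer than cells with both. The 16 cells with Mki67 alone had a median of 1 and at most 4 G2/M genes, the 38 with Top2a alone a median of 1 and at most 3, and the 10744 with neither a median of 1 and at most 4. Their means were 1.38, 0.921 and 0.748 G2/M genes, and after thinning the medians were 1, 1 and 0. The 6 cells with both had a median of 12.5. After thinning, 4 of the 6 were left, and the genes whose share differed most from that of 10180 other cells were Esco2 and Hmmr, each in 2 of the 4, and Cxcl9, Depdc1a, Fam174b, Gm42889, Neil3, Spata31d1a, Ankle1 and Pbk, each in 1. Esco2 acts in sister chromatid cohesion, Hmmr in the mitotic spindle and Neil3 in DNA repair.

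S-phase transcripts were found in more cells than both markers. UMIs of 6 or more of 25 S-phase genes, among them the replication clamp Pcna and the Mcm helicase subunits, were present in 116 of 10804 cells, 1.07% (0.888 to 1.29), of which 4 held both markers. The WT share was 1.21% (0.938 to 1.53) and the iKD share 0.931% (0.690 to 1.23), at median depths in these cells of 9704 and 8522 UMIs. In the 110 such cells of the 8 clusters, Ccnd1 was at 1.86 counts per 10,000 UMIs (1.60 to 2.15), against 1.34 in the other 10182 cells. Cdk4 was at 0.591 (0.451 to 0.760) against 0.395 and Cdkn1a at 0.489 (0.358 to 0.652) against 0.232. Ccnd3 ran the other way, at 5.53 (5.08 to 6.01) against 7.10, and Rb1 was at 1.28 against 1.30. Cells in which more genes are detected reach 6 S-phase genes more easily, and the part of depth in these values was not tested.

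The study's main comparison sets iKD against WT cells, and it was made over the 6 clusters from qNSC1 to IPC2. Ccnd3 was lower in iKD, at 6.07 counts per 10,000 UMIs from 15077 UMIs against 7.68 from 23772 in WT, a log2 ratio of -0.34 (-0.37 to -0.31). Cdk6 was at 2.15 in iKD and 1.83 in WT, a log2 ratio of 0.23 (0.18 to 0.29). Ccnd1 was at 1.48 in iKD and 1.30 in WT, a log2 ratio of 0.19 (0.12 to 0.25). Cdkn1b was at 0.785 and 0.726, a log2 ratio of 0.11 (0.02 to 0.20), and Cdkn1a at 0.261 and 0.295, a log2 ratio of -0.17 (-0.32 to -0.02). Cdk4, at 0.410 and 0.409, and Rb1, at 1.23 in both, had log2 ratios of 0.00 (-0.12 to 0.12) and 0.01 (-0.06 to 0.08).

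A log2 ratio of at least 0.5 in size was reached by 2 of the 10 genes, both lower in iKD, and by 2.48% of 14220 genes in either direction, with 1.48% of the 14220 lower in iKD. The 2 were Top2a, with 42 UMIs in WT and 15 in iKD and a log2 ratio of -0.59 (-1.55 to 0.29), and Mki67, with 26 and 6 and a log2 ratio of -0.54 (-2.11 to 0.77). These intervals have the width of the counting error but are set around ratios that the pseudocount of 0.01 makes smaller in size. With a pseudocount of 0.001 the ratios were -1.13 for Top2a and -1.37 for Mki67, so whether the intervals include no change depends on the pseudocount. Both ratios rest on few cells, 13 WT and 3 iKD cells with Mki67 and 23 and 13 with Top2a. Without the cells that hold both markers neither gene reached 0.5 at the pseudocount of 0.01. Leaving out these cells also lowers the levels, at which the pseudocount makes ratios smaller still. The parts of the cells and of the pseudocount in this were not told apart. Ccnd2, with 17 and 22 UMIs, had a log2 ratio of 0.32 (-0.66 to 1.33). The median log2 ratio was 0.00 over the 10 genes and 0.01 over all genes tested.

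Cluster by cluster, Ccnd3 was lower in iKD in 8 of 8 clusters, with log2 ratios from -0.59 in aNSC and IPC2 to -0.06 in eNB. Of 8695 genes with at least 20 UMIs in each of these clusters, 2.3% were lower in all 8. Ccnd1 and Cdkn1b were each higher in iKD in 7 of the 8, as were 9.75% of genes in 7 or 8. The Ccnd1 ratio was -0.14 in qNSC1 and 0.34 in eNB and NB. The Cdkn1b ratio was -0.15 in NSPCs and 0.77 (0.28 to 1.26) in aNSC. Within aNSC cells scored female it was 0.44 (-0.29 to 1.23), an interval that spans 0, and the male iKD cells there held 2 Cdkn1b UMIs. The clusters are parts of the same 2 libraries and do not stand as replicates of the genotype.

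Cdk6, Cdkn1a and Rb1 differed in direction between clusters, and how many of all genes did so was not counted. In aNSC the Cdk6 level was 2.81 in iKD and 1.51 in WT, a log2 ratio of 0.89 (0.62 to 1.15), whereas in qNSC1 it was 2.65 and 3.11, a ratio of -0.23 (-0.45 to -0.01). The Cdkn1a ratio was -0.93 (-1.71 to -0.20) in aNSC, from 20 iKD and 79 WT UMIs, and 1.07 (0.45 to 1.70) in NB, from 60 and 36. Rb1 was at 1.39 in iKD and 0.977 in WT cells of aNSC, a log2 ratio of 0.50 (0.14 to 0.86), and at 1.34 and 1.71 in NB, a ratio of -0.34 (-0.53 to -0.16). A log2 ratio of at least 0.5 in size was reached by 19.6% of all genes tested in aNSC and 9.65% in NB. The aNSC cluster held 197 WT and 108 iKD cells, of which 19.3% and 88.9% were scored female. Within female cells of aNSC the Cdk6 ratio was 1.01 (0.53 to 1.53) and the Cdkn1a ratio -1.49 (-2.47 to -0.54), but the Rb1 ratio was 0.29 (-0.27 to 0.87), with an interval that spans 0. The male iKD cells of aNSC were 6, with 0 UMIs of Rb1.

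The shares of cells from each sex were unequal between the libraries. Cells were scored by UMIs of Xist on one side and of Uty, Kdm5d, Eif2s3y and Ddx3y from the Y chromosome on the other, and 47.0% of WT and 65.4% of iKD cells of the 6 clusters were scored female and 44.9% and 26.9% male. IPC2, the cluster with the highest Ccnd3 of the 8 over both genotypes, was 91.2% male in WT and 77.7% in iKD. The genotype ratios were therefore also taken within each sex, as plotted for the 7 genes with the most UMIs.

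**Figure D4:**
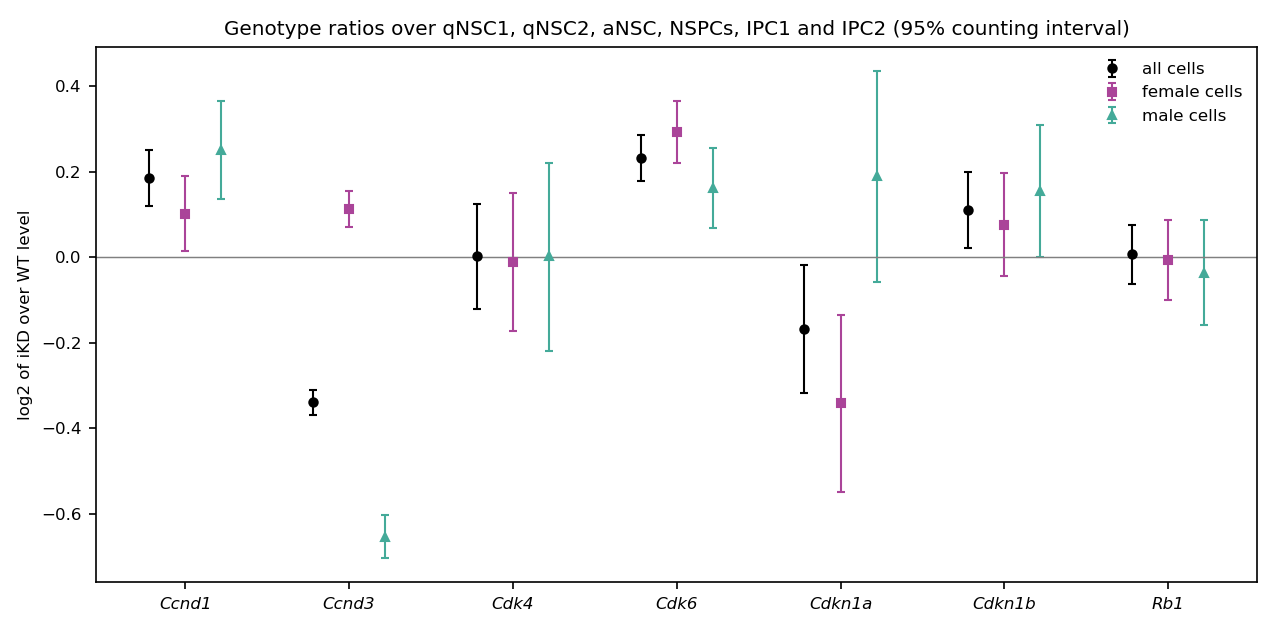
Log2 ratio of the iKD over the WT level for 7 genes in the 6 clusters from qNSC1 to IPC2, over all cells and within cells scored female or male, with 95% counting intervals. The Ccnd3 points lie at -0.34 for all cells, 0.11 for female and -0.65 for male cells, and the Cdkn1a points at -0.17, -0.34 and 0.19.

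Pooled over the 6 clusters, Ccnd3 was lower in iKD in male cells and higher in female cells, while within clusters the female ratios were of both signs. The 1686 male WT cells of the 6 clusters had a level of 9.66 counts per 10,000 UMIs, and the other groups lay close together, at 5.64 in female WT, 6.10 in female iKD and 6.13 in male iKD cells. The log2 ratio was -0.65 (-0.70 to -0.60) in male and 0.11 (0.07 to 0.16) in female cells, and leaving out IPC2 gave -0.68 and 0.08. Cluster by cluster the male ratio lay between -0.88 in NB and -0.51 in qNSC1, and was below 0 in 8 of 8. The female ratio lay between -0.23 in qNSC2 and 0.56 in IPC2 and was below 0 in 5 of 8, with an interval below 0 in 1 and above 0 in 1. IPC2 was the only 1 of the 8 in which the female and male intervals lay on opposite sides of 0. Male WT cells had the highest Ccnd3 level of the 4 groups in each of the 8 clusters, from 5.66 in qNSC1 to 10.7 in NB. Female WT cells of IPC2 were only 9, against 116 female iKD cells. NSPCs, with a low Ccnd3 level, made up 829 of 1765 female WT and 656 of 2230 female iKD cells of the 6 clusters. The part of this cluster mix in the pooled female ratio was not tested. The mice behind each sex and library were pooled and cannot be told apart.

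**Figure D5:**
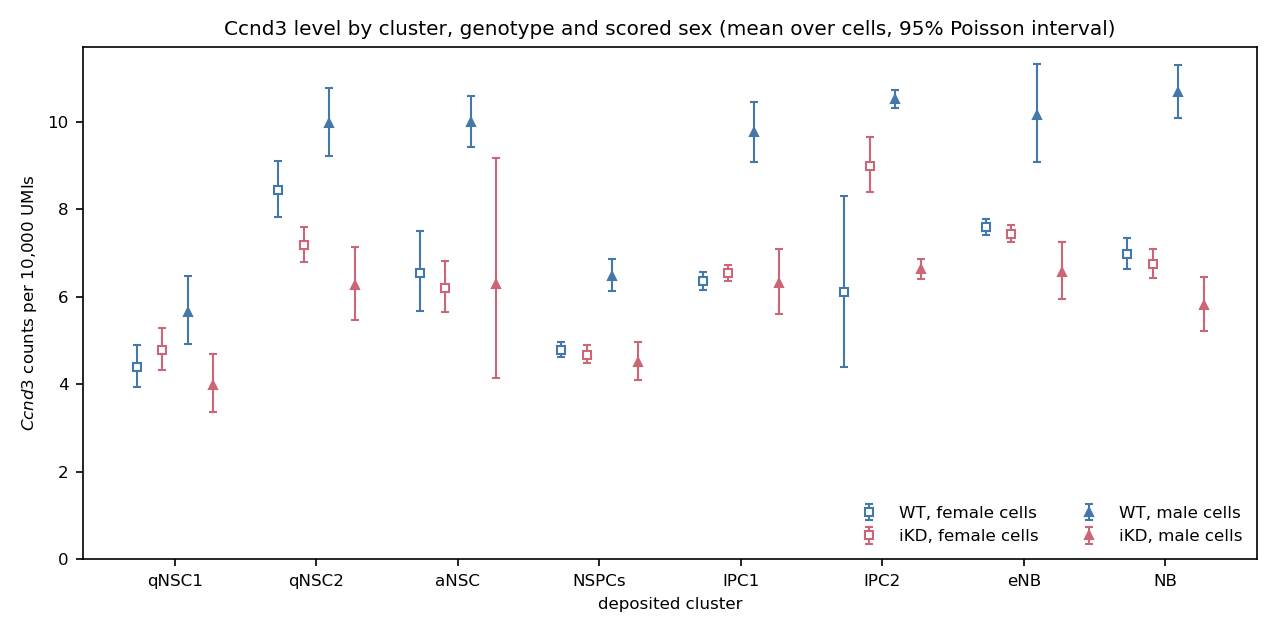
Ccnd3 level (counts per 10,000 UMIs, mean over cells) in the 8 clusters from qNSC1 to NB for female (open squares) and male (filled triangles) cells of WT and iKD, with 95% Poisson intervals. Male WT cells are highest in each cluster, at 10.7 in NB against 5.81 in male iKD cells.

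The sum of a list of glucocorticoid-responsive genes moved with Ccnd3. The list held 8 genes, and Cdkn1a was left out of the sum because it is among the 10 genes here. The summed level of 7 such genes (Fkbp5, Ddit4, Tsc22d3, Sgk1, Per1, Zbtb16 and Klf9) was 26.4 counts per 10,000 UMIs in male WT cells of the 6 clusters, 15.3 in female WT, 16.1 in female iKD and 14.0 in male iKD cells. Male WT cells were highest for this sum in each of the 8 clusters too. Microglia markers did not follow this order, with summed levels of 387.0, 411.0, 394.6 and 389.9. Genes induced by tissue dissociation, 16 in the list, had summed levels of 149.9, 150.8, 157.8 and 163.1. Cdkn1a, the listed gene left out, did not follow the order of the sum either. Its level in the 6 clusters was 0.280 in male WT, 0.298 in female WT, 0.233 in female iKD and 0.321 in male iKD cells. The part of the glucocorticoid-responsive genes in the Ccnd3 result was not tested.

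Cdkn1a also differed by sex, with a log2 ratio of -0.34 (-0.55 to -0.14) in female and 0.19 (-0.06 to 0.44) in male cells. Without IPC2 it was -0.29 (-0.50 to -0.08) in female and 0.53 (0.20 to 0.85) in male cells. By cluster the male ratio was 0.96 in qNSC1 and 1.01 in qNSC2, but -0.02 in NSPCs, -0.22 in IPC1 and -0.14 in IPC2. Ratios of opposite sign and at least 0.5 apart in the 2 sexes were found for Ccnd3 and Cdkn1a among the genes here and for 7.99% of 12508 genes. The Ccnd1 ratio was 0.10 in female and 0.25 in male cells, that of Cdk6 0.29 and 0.16 and that of Cdkn1b 0.08 and 0.16, so these kept their direction. For Cdkn1b, however, the female interval reached from -0.04 to 0.20, and without IPC2 the ratio over all cells was 0.06 (-0.04 to 0.17). Cdk4 stayed at -0.01 and 0.00 and Rb1 at -0.01 and -0.04. For Ccnd2, Mki67 and Top2a the male iKD cells held 2 UMIs each, and no male ratio is given here. In female cells the ratio was 0.36 (-0.87 to 1.70) for Ccnd2 and -0.98 (-2.99 to 0.58) for Mki67. For Top2a it was -0.99 (-2.07 to -0.007). Of the female WT UMIs, 1 aNSC cell held 10 of 21 for Mki67 and 11 of 35 for Top2a, and the pseudocount acts on these ratios too.

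The partners of these genes further along the pathway were present but differed little between genotypes. Among 28 genes of the G1/S step, E2f3, the E2F factor with the highest level, was at 1.25 counts per 10,000 UMIs in 55.9% of cells of the 6 clusters, the stress factor gene Trp53 at 0.813 in 44.1% and its regulator Mdm2 at 0.708 in 39.9%. Their log2 ratios of iKD over WT were -0.00, -0.01 and -0.01. Of the 25 S-phase genes, Pcna was at 0.685 with a ratio of 0.05, the histone mRNA binding protein gene Slbp at 0.659 and Mcm3 at 0.286 with a ratio of -0.19. Hmgb2, a chromatin protein gene also active outside division, led the 28 G2/M genes at 1.51 in 57.7% of cells, far above Smc4 at 0.150 and Cenpa at 0.0350. Fewer than 1% of cells held a UMI for 23 of the G2/M, 9 of the S-phase and 4 of the G1/S genes.

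Between genotypes, 0 of the 25 G1/S genes with at least 20 UMIs, 0 of 23 S-phase genes and 1 of 18 G2/M genes passed a log2 ratio of 0.5. The 1 was Prc1, a gene of the mitotic spindle midzone named after its value was seen, at -0.69 (-1.75 to 0.26) from 55 UMIs. This interval was also set around a ratio made smaller in size by the pseudocount. The background was 0.999% of genes higher and 1.48% lower. The median log2 ratio was 0.01 for the G1/S, -0.09 for the S-phase and 0.01 for the G2/M genes.

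Over the 16 combinations of the 8 clusters and genotype, some genes followed the D-type cyclins closely. Among 3824 genes, the log2 levels of March1, Tbc1d9 and Mlxip had the highest Pearson correlations with Ccnd3, at 0.954, 0.954 and 0.953. For Ccnd1 they were Mcur1, Mrpl17 and Ddx24, at 0.83, 0.77 and 0.77, for Ccnd2 Apobec1, Atg16l1 and Ep400, at 0.77, 0.75 and 0.75, and for Cdkn1a Srsf2, Ddx21 and Bcl2a1b, at 0.87, 0.86 and 0.85. The points share libraries, depth and sex composition, and the Ccnd2 values rest on 59 UMIs, so these figures are descriptions.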

How the data were processed

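EYFP+ DG cells of 5 pooled mice per genotype gave 1 10x library for WT and 1 for iKD. The submitters' processing notes name Cell Ranger 7.0.1 and Seurat 4.1.1, besides CASAVA 1.8.2, HISAT2 2.0.6, Subread and featureCounts, and the build GRCh38, although gene symbols are those of the mouse. The authors deposited 12 tables, 1 per cluster, whose values are the natural log of 1 plus counts per 10,000 UMIs. UMI counts were recovered from them as whole multiples of the lowest value of a cell, and 100% of 32261786 values came out whole within 0.01. Cells reached at most 11998 UMIs and 3999 genes.

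A level is the mean over cells of counts per 10,000 UMIs, with the exact Poisson interval of the summed UMIs. Shares of cells have exact binomial (Clopper-Pearson) intervals, and a count of 0 was taken to allow 3 counts. Log2 ratios of iKD over WT used a pseudocount of 0.01, which sets the size of the ratios of Ccnd2, Mki67 and Top2a. Intervals of ratios have the width of the binomial interval of the UMIs and are set around the ratio with the pseudocount. For genes near that level the pseudocount therefore also sets whether an interval spans 0. A gene was called past a log2 ratio of 0.5 if it had at least 20 UMIs. UMIs were not tested across cells, since cells are not replicates. For shares across depths, cells were thinned to 4500 UMIs and shallower cells left out, leaving 5184 of 5283 WT and 4769 of 5009 iKD cells of the 8 clusters. No doublet caller was run, and no cell was removed.

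The 10 genes, gene lists and rules were chosen with earlier results of these data known. Named pathway genes are the 3 with the highest level of each list. Genes named for cells with both markers have the largest ratio of shares among genes in at least 20% of them, and genes named for likeness the highest correlation of log2(level + 0.1). Gene positions are from GENCODE release M21. Python 3.11.15, numpy 2.4.6, scipy 1.17.1 and pandas 2.3.3 were used. On simulated counts of 32285 genes over the 6 clusters, 100% of the values above 0 were rebuilt as the simulated counts. Of 200 changed genes, 200 had the right direction and 197 had the true ratio inside the interval. The changed genes were drawn from genes with at least 200 UMIs, and Ccnd2, Mki67 and Top2a had fewer.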

Additional observations from a re-analysis of the deposited data

Results flagged for a closer look

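Some genotype ratios went in opposite directions in 2 sexes or 2 clusters, with intervals on opposite sides of 0, and in each case the difference was not tested. The share of all genes with such intervals was not counted, so no trait particular to these genes can be read from them. The log2 ratio of Ccnd3 over the 6 clusters was 0.11 in female and -0.65 in male cells. That of Cdk6 was -0.23 in qNSC1, against 0.89 in aNSC, 0.18 in NSPCs, 0.30 in IPC1, 0.24 in eNB and 0.31 in NB. Cdkn1a was at 0.61 in qNSC2 and 1.07 in NB, against -0.93 in aNSC, -0.51 in NSPCs and -0.39 in IPC1. Within qNSC2 its interval spanned 0 in each sex, at -0.30 to 1.24 in female and -0.003 to 2.02 in male cells. In female cells of NB, aNSC, NSPCs and IPC1 the Cdkn1a interval stayed on the same side of 0. In male cells of NB, NSPCs and IPC1 it spanned 0. Rb1 was at 0.50 in aNSC, against -0.19 in eNB and -0.34 in NB, but within female cells of aNSC it was 0.29 (-0.27 to 0.87), so its interval there did not stay above 0. The opposite signs of Ccnd3 in the sexes had intervals on both sides of 0 within 1 cluster of 8, IPC2, where female WT cells were 9.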

How the results depend on the processing

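No paired analysis was possible because each genotype has 1 library. The count of members past a log2 ratio of 0.5, which was 2, became 3 with a pseudocount of 0.001, which adds Ccnd2, 0 with a pseudocount of 1, with 8 clusters or without cells with both markers, and 1 in male cells only, with the mean of the 6 ratios within clusters or with the mean of female and male ratios, where the male ratio of Top2a rests on 2 UMIs in iKD. The last setting, the one without double-positive cells and the one without IPC2 were chosen after seeing the data. Among these, the pseudocount acts on Mki67 and Top2a, whose levels lie near 0.01. Members with a highest level at least 2 times the lowest over 8 clusters numbered 7 in WT cells only, against 4. The share of all genes that did so in WT cells only was not counted, so the 7 has no background to be set against. The share of cells with Mki67 and Top2a in the 6 clusters, 0.0558%, was 0 in male cells only. Reversed ratios were those of Ccnd3 in female cells only, 0.11, and Cdkn1a in male cells only, 0.19. Over 16 alternatives the ratio of Ccnd1 stayed between 0.10 and 0.25, that of Cdk6 between 0.16 and 0.29 and that of Cdkn1b between 0.05 and 0.23, whereas Ccnd3 ranged from -0.65 to 0.11. The highest cluster was kept for 9 of the 10 genes in WT cells only and for 4 in iKD cells only. With 1 library per genotype, pooled mice, unequal sex shares and 22 and 44 cells with Mki67 and Top2a, neither a genotype difference nor its absence can be shown for the cycle markers.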
